A study of Bos indicus and Bos taurus with 17 samples.

Results

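The proteasome subunit genes were read as every named gene whose symbol starts with PSMA to PSMG followed by a digit, without PSMB8 and PSMB9, which are given only for reference. The rule found 45 genes among 21631 distinct names (61264 entries, 25121 of them named). For PSMA3 and PSMG2, each listed as 2 entries, the entry with the higher mean over the groups was used. PSME3 stood in an entry joined with AOC2 and PSMC3IP in one joined with FAM134C, so those values may hold reads of both genes. PSMC3IP matches by its name but is a recombination factor and not a proteasome subunit. PSMA1 and PSMA2 were not analysed here.

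Milk epithelial cells of Kashmiri cattle, an indigenous breed, and Jersey cattle, a high-yielding dairy breed, were compared at D15, D90 and D250 in milk (early, mid and late lactation). No treatment was given, the cells had been captured from milk with antibody to a keratin, and labels record cows in lactation 2 or 3, sampled in 1 calendar month per stage, so day in milk and season cannot be told apart. The labels name 17 samples, 3 in each group of breed and day and 2 in Jersey at D90. The values were FPKM (fragment counts scaled to transcript length and to the mapped fragments of a library), 1 value per gene for each of the 6 groups, with no value per cow. No spread between cows, test or p-value is therefore possible for any difference below, and the table does not give the number of reads behind a value.

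The proteasome degrades proteins tagged with ubiquitin and supplies peptides for presentation on MHC class I. Its barrel-shaped core has outer alpha rings (PSMA genes) that control entry and inner beta rings (PSMB genes) that cut, with PSMB5, PSMB6 and PSMB7 as the catalytic subunits of most cells and PSMB8, PSMB9 and PSMB10 as their interferon-inducible replacements. A cap of ATPases (PSMC genes), which unfold substrates, and non-ATPases (most PSMD genes), which bind and strip ubiquitin, sits on the core, whereas PSME1 and PSME2 form the ubiquitin-independent activator PA28.

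Of the 45 genes, 43 reached 1 FPKM, and each of these did so in all 6 groups. PSMA8, an alpha subunit known from testis, was listed at 0 in every group, and PSMB11, a catalytic subunit known from thymus, did not exceed 0.00924 FPKM. Of the 43, 25 had a highest group value under 2 times the lowest, against 15.3% of the 8568 genes at 1 FPKM or more in every group. The median ratio of highest to lowest group was 1.91 for the proteasome genes and 3.50 for those 8568 genes. With values rescaled to the sum without milk protein genes the count was 8 against 5.74%, and with an upper-quartile rescaling it was 16 against 11.5%. The 2 sets differ in level. Group medians were 39.7 to 58.7 FPKM for the 45 genes and 7.72 to 9.58 FPKM for all genes at 1 FPKM or more in a group. Genes of like level were not compared, so the narrower range cannot be called particular to the proteasome genes. PSMB3, a structural beta subunit, had the narrowest range, from 97.6 to 125 FPKM. PSMA3 (13.9-fold), PSMG4 (8.83-fold) and PSMG3 (7.11-fold) had the widest, although the PSMA3 entry that was not used ran only from 33.5 to 61.5 FPKM (1.84-fold).

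**Figure D1:**
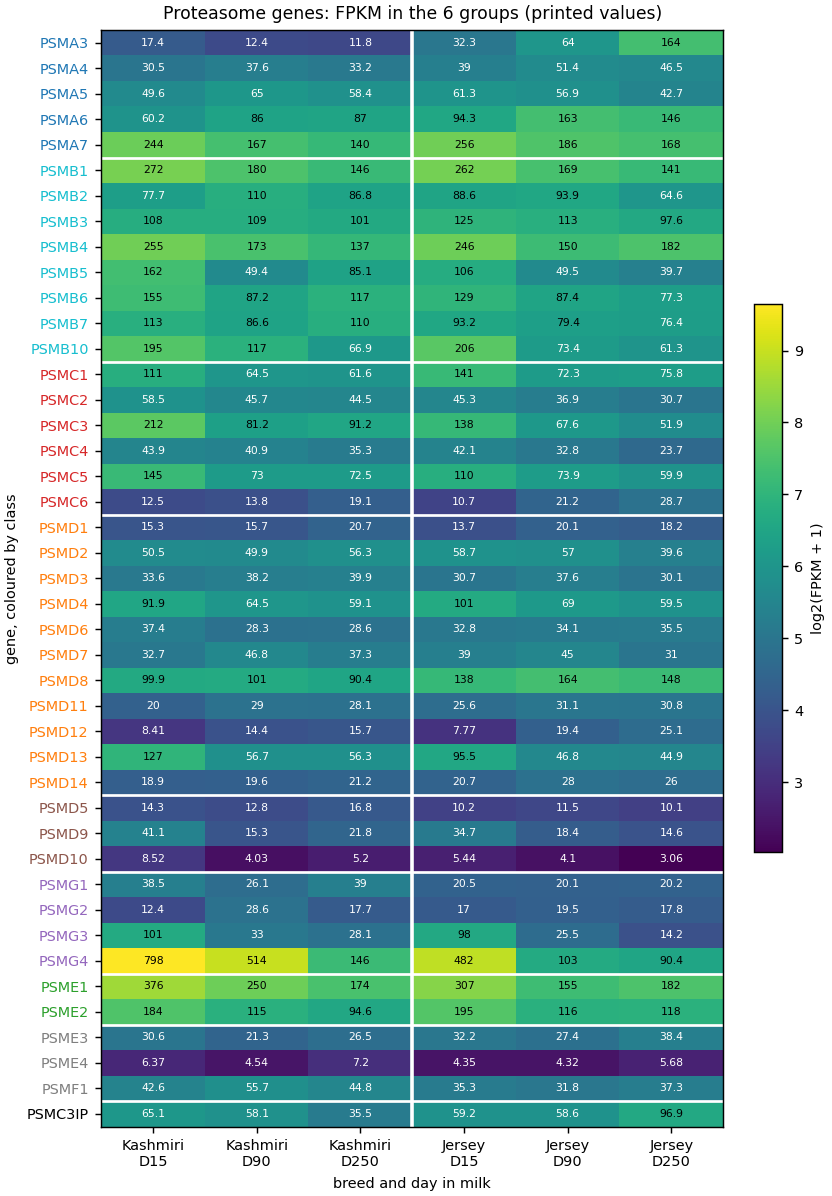
FPKM of the 43 genes at 1 FPKM or more (rows, coloured by class) in the 6 groups of breed and day (columns). Colour shows log2(FPKM + 1) and the printed figure is the FPKM, 1 pooled value per group. PSMG4 in Kashmiri D15 (798 FPKM) is the highest cell, and PSMG3, PSMG4, PSMB10 and PSMC3 are highest at D15 in both breeds.

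The cells were labelled epithelial, and all 14 epithelial markers were found, with none at 0 in any group. Their summed level ran from 105 FPKM in Jersey D90 to 5878 FPKM in Kashmiri D15, and KRT18 from 1.59 to 51.3 FPKM. The 8 of 12 neutrophil markers found summed to between 356 and 887 FPKM in Kashmiri and between 5187 and 13624 FPKM in Jersey groups, none at 0. This list is not specific to neutrophils, since the paper used LSP1 as a leucocyte marker and CD18 (ITGB2) as a macrophage marker. In Kashmiri cattle these 2 had 139 and 46.5 FPKM at D15 and 254 and 153 FPKM at D90. The 10 macrophage markers, all above 0, summed to 109 FPKM in Kashmiri D15 and to between 483 and 2145 FPKM in the other 5 groups, and the 9 of 10 T and NK cell markers, also above 0, to 1606 FPKM in Kashmiri D90 against 101 to 380 FPKM elsewhere. The 7 B cell markers, none at 0, summed to between 8.90 and 80.0 FPKM and the 5 of 8 red blood cell markers found to at most 1.05 FPKM, with HBB listed at 0 in 3 groups. These levels moved with day and breed, their part in the results below was not tested, and in such bulk material fewer cells of a type and less RNA per cell cannot be told apart.

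Ratios were taken as log2((FPKM + 1)/(FPKM + 1)), later over earlier day or Jersey over Kashmiri, and a gene was counted as past the limit at an absolute log2 ratio of 1 or more. Both rescalings moved the median ratio of all genes, by between -0.64 and 0.85 for the sum and by between -0.42 and 0.25 for the upper quartile. Medians of a class are therefore also given relative to the median of all genes in the same comparison. Statements that a gene was highest or lowest on a day refer to values as deposited.

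In Kashmiri cattle at D90 against D15, the PSM genes had a median log2 ratio of -0.39, against -0.01 for all genes. Past the limit were 5 genes downwards (background 18.8% of all genes) and 1 upwards (14.7%). The genes down were PSMB5, the chymotrypsin-like catalytic subunit, PSMG3, PSMC3, PSMD9 and PSMD13, and the gene up was PSMG2. All of these except PSMD13 were past the limit under both rescalings too. In Jersey cattle the same comparison gave a median of -0.15 against -0.07 for all genes, with 6 genes down (background 16.9%) and 1 up (12.8%). PSMG4, PSMG3, PSMB10, PSMB5, PSMC3 and PSMD13 were down and PSMD12, a non-ATPase of the cap, was up. PSMG4, PSMG3, PSMB10 and PSMD12 kept their side of the limit under both rescalings.

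Between D250 and D15 the median was -0.31 in Kashmiri (all genes -0.04) and -0.43 in Jersey cattle (all genes 0.07). Rescaled to the sum, the Kashmiri median was 0.68 (all genes 0.81), and relative to all genes it turned from -0.26 to 0.10 where only genes at 10 FPKM or more were kept. In Kashmiri cattle 6 genes were down (background 14.5%) and 0 up (11.2%), namely PSMG4, PSMG3, PSMB10, PSMC3, PSMD13 and PSME1. PSMG4 alone of these stayed past the limit under both rescalings. In Jersey cattle 7 genes were down (background 17.9%) and 3 up (24.5%), and all 10 stayed past the limit under both rescalings. PSMG3, PSMG4, PSMB10, PSMC3, PSMB5, PSMD9 and PSMD13 were down, and PSMA3, PSMD12 and PSMC6 were up, PSMA3 by 1 of its 2 entries only (2.31 against 0.20).

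At D250 against D90, the median in Kashmiri cattle was -0.05 (all genes 0.03), with PSMG4 down (1 gene, background 8.77%) and 0 up (8.95%). Rescaled to the sum, 9 genes were up, against 27.2% of all genes, and the median was 0.63 for both the PSM genes and all genes. In Jersey cattle it was -0.15 (all genes 0.15), with PSMA3 up (1 gene, background 16.6%) and 0 down (4.22%). The other PSMA3 entry had 50.0 FPKM on the earlier and 38.7 FPKM on the later day, and no gene was past the limit under all scalings.

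**Figure D2:**
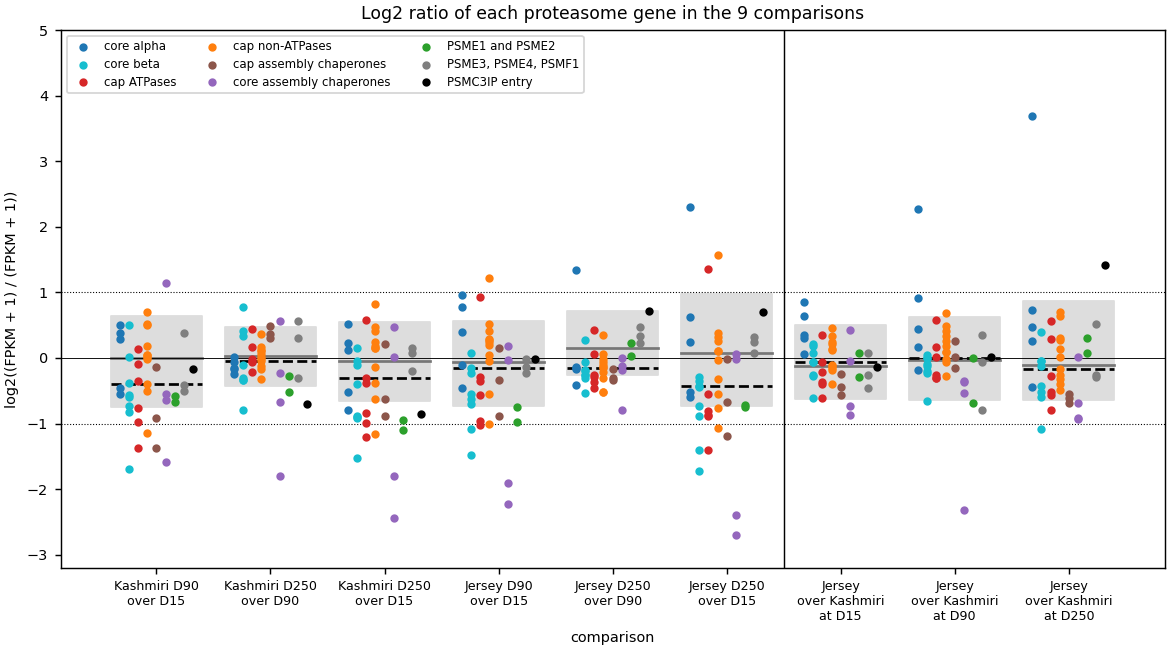
Log2 ratio of each proteasome gene (points, coloured by class) in the 9 comparisons, with the median (grey line) and the middle 50% (grey box) of all genes and the median of the proteasome genes (dashed line). Dotted lines mark the limit of 1 in either direction, past which 7 genes lie downwards in Jersey D250 over D15.

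The classes did not move alike. The 8 beta subunits at 1 FPKM or more had median log2 ratios against D15 of -0.58 (D90) and -0.65 (D250) in Kashmiri and of -0.59 on both days in Jersey cattle, where 8 of 8 were lower at D250. The 6 ATPases of the cap had medians of -0.56 and -0.61 in Kashmiri and of -0.46 and -0.84 in Jersey cattle. In Kashmiri D250 over D15 the medians of both classes turned to 0.36 and 0.38 when values were rescaled to the sum, which also raised the median of all genes to 0.81. Relative to all genes, both classes lay below 0 under all 3 scalings in each of these 4 comparisons, from -0.37 to -0.92.

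The 11 non-ATPases of the cap and the alpha ring lay elsewhere. The non-ATPases had medians of 0.04 and 0.16 in Kashmiri and of 0.25 and 0.10 in Jersey cattle at D90 and D250 against D15, the last turning to -0.04 and -0.01 on rescaling. The 5 alpha subunits at 1 FPKM or more had medians of 0.30 and 0.12 in Kashmiri and of 0.39 and 0.25 in Jersey cattle, above 0 under all 3 scalings. As deposited, 3 of the 5 lay above 0 and 2 below it in each of these 4 comparisons, and PSMA7 was below it in all of them (-0.80 in Kashmiri D250 over D15). Relative to all genes, the alpha ring median lay above 0 in all 4 comparisons and under all 3 scalings, by 0.16 to 0.48. Without PSMA3 the relative median of the other 4 turned to -0.21 in Jersey D250 over D15 as deposited. The median level of the ATPases over that of the 12 constitutive core subunits was 0.767, 0.635 and 0.566 in Kashmiri and 0.775, 0.576 and 0.472 in Jersey cattle on D15, D90 and D250 (0.537 in Jersey D250 with the other PSMA3 entry). This ratio was lower on each later day in both breeds, and no scaling of a group can alter it.

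Levels of the constitutive core subunits, which occupy the particle in equal numbers, differed between genes in every group. At Kashmiri D15 they ran from 17.4 FPKM (PSMA3, by the entry used) to 272 FPKM (PSMB1). The coefficient of variation over the 12 genes was 69.5%, 55.8% and 45.3% in Kashmiri and 64.3%, 47.3% and 51.3% in Jersey cattle on D15, D90 and D250. In both breeds it was highest at D15.

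PSMB5 stood at 162, 49.4 and 85.1 FPKM in Kashmiri and at 106, 49.5 and 39.7 FPKM in Jersey cattle on D15, D90 and D250. PSMB6, the caspase-like subunit, had 155, 87.2 and 117 FPKM in Kashmiri and 129, 87.4 and 77.3 FPKM in Jersey cattle. For PSMB7, the trypsin-like subunit, the values were 113, 86.6 and 110 FPKM and 93.2, 79.4 and 76.4 FPKM. As deposited, each of these 3 was highest at D15 in both breeds, and in Kashmiri cattle each was higher at D250 than at D90. Rescaling to the sum turned their Kashmiri log2 ratios of D250 over D15 from -0.92, -0.40 and -0.04 to 0.08, 0.60 and 0.96, and upper-quartile rescaling turned that of PSMB7 to 0.23. PSMB10, the inducible counterpart of PSMB7, had 195, 117 and 66.9 FPKM in Kashmiri and 206, 73.4 and 61.3 FPKM in Jersey cattle. For D250 over D15 this gave log2 ratios of -1.53 (Kashmiri) and -1.73 (Jersey), and as deposited it was lowest at D250 in both breeds.

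Ratios within a group compare the inducible with the constitutive catalytic subunits without any scaling. PSMB10 over PSMB7 was 1.73, 1.35 and 0.611 in Kashmiri and 2.21, 0.925 and 0.803 in Jersey cattle on D15, D90 and D250, so at D250 it had 0.353 and 0.364 times its D15 value. PSMB8 over PSMB5 was 3.74, 7.91 and 2.05 in Kashmiri and 5.69, 5.23 and 7.67 in Jersey cattle. PSMB9 over PSMB6 was 1.31, 2.26 and 0.630 against 1.86, 1.65 and 1.96. The PSMB10 ratio was lower on each later day in both breeds, whereas the other ratios peaked at D90 in Kashmiri and stayed within 1.47-fold between days in Jersey cattle. PSMB8 itself had 606, 391 and 174 FPKM in Kashmiri and 605, 259 and 305 FPKM in Jersey cattle, and PSMB9 had 203, 197 and 73.5 FPKM and 239, 145 and 151 FPKM. In Kashmiri cattle the T and NK cell (1606 FPKM) and B cell marker sums (80.0 FPKM) were also highest at D90. So was the neutrophil sum (887 FPKM), with LSP1 and ITGB2 included. From D90 to D250, 3 markers of that list rose and 5 fell. S100A8, S100A9 and S100A12 rose from 74.3, 65.7 and 240 FPKM to 106, 107 and 294 FPKM. LSP1 and ITGB2, which are not specific to neutrophils, fell from 254 and 153 FPKM to 68.6 and 64.1 FPKM. The D90 peak of the sum was therefore not shared by the S100 markers. The macrophage sum was about level between D90 (483 FPKM) and D250 (491 FPKM), with 4 markers higher and 5 lower at D250. The epithelial sum was highest at D15 (5878 FPKM). PSMB8 itself was lower at D90 than at D15 in that breed, as was PSMB5 (49.4 against 162 FPKM). In Jersey D250, PSMB8 over PSMB5 was 7.67 with a T and NK cell sum of 101 FPKM. The part of these cells in the ratios was not tested.

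**Figure D3:**
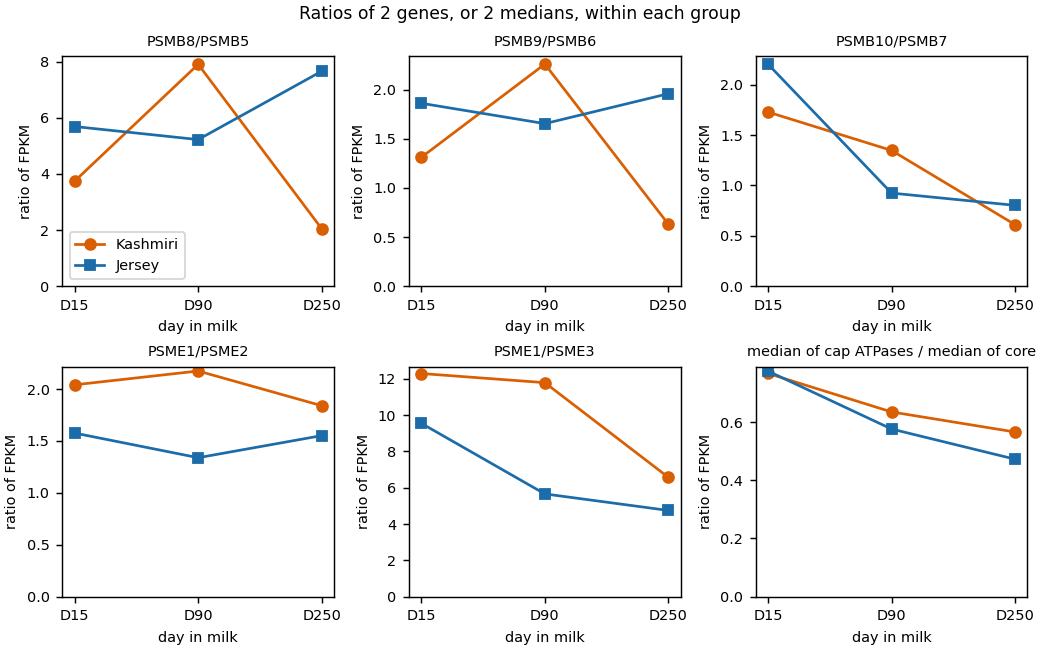
Ratio of FPKM of 2 genes, or of 2 class medians, within each group against day in milk for Kashmiri (circles) and Jersey cattle (squares), 1 value per group. PSMB10/PSMB7 and the ATPases over the core are lower on each later day in both breeds, and PSMB8/PSMB5 is 7.91 in Kashmiri D90 and 2.05 in Kashmiri D250.

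PSME1 and PSME2 were among the most abundant of the genes. PSME1, the PA28 alpha subunit, had 376, 250 and 174 FPKM in Kashmiri and 307, 155 and 182 FPKM in Jersey cattle on D15, D90 and D250. PSME2, the PA28 beta subunit, had 184, 115 and 94.6 FPKM in Kashmiri and 195, 116 and 118 FPKM in Jersey cattle. As deposited, both were highest at D15 in each breed, and their median log2 ratio at D250 over D15 was -1.03 in Kashmiri and -0.73 in Jersey cattle, below 0 under all 3 scalings, if barely (-0.03) for Kashmiri rescaled to the sum. PSME1 over PSME2 stayed between 1.34 and 2.17 and was higher in Kashmiri than in Jersey cattle on all 3 days. Of the other activators, PSME3 was also highest at D15 in Kashmiri cattle as deposited but at D250 in Jersey cattle, and PSME4 at D250 in both breeds. PSME3, the nuclear PA28 gamma, had 30.6, 21.3 and 26.5 FPKM in Kashmiri and 32.2, 27.4 and 38.4 FPKM in Jersey cattle, so that PSME1 over PSME3 was 12.3, 11.8 and 6.57 in Kashmiri and 9.54, 5.66 and 4.75 in Jersey cattle. PSME4, the PA200 activator, had 6.37, 4.54 and 7.20 FPKM in Kashmiri and 4.35, 4.32 and 5.68 FPKM in Jersey cattle. PSMF1, the inhibitor PI31, had 42.6, 55.7 and 44.8 FPKM and 35.3, 31.8 and 37.3 FPKM.

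Among the ATPases, PSMC3 had the highest mean level, with 212, 81.2 and 91.2 FPKM in Kashmiri and 138, 67.6 and 51.9 FPKM in Jersey cattle. PSMC6 had the lowest, with 12.5, 13.8 and 19.1 FPKM in Kashmiri and 10.7, 21.2 and 28.7 FPKM in Jersey cattle. Although both are part of the same ring, PSMC3 was highest and PSMC6 lowest at D15 in both breeds. PSMC1, PSMC2, PSMC4 and PSMC5 were also highest at D15 in both breeds as deposited, but rescaled to the sum their Kashmiri log2 ratios of D250 over D15 were 0.16, 0.60, 0.68 and 0.01.

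Of the non-ATPases, PSMD8 had the highest mean, with 99.9, 101 and 90.4 FPKM in Kashmiri and 138, 164 and 148 FPKM in Jersey cattle. PSMD12 had the lowest, with 8.41, 14.4 and 15.7 FPKM in Kashmiri and 7.77, 19.4 and 25.1 FPKM in Jersey cattle, and PSMD11 had 20.0, 29.0 and 28.1 FPKM and 25.6, 31.1 and 30.8 FPKM. PSMD13 went the other way, with 127, 56.7 and 56.3 FPKM and 95.5, 46.8 and 44.9 FPKM. PSMD4, the ubiquitin receptor, was highest at D15 in both breeds. PSMD7 was highest at D90 in both, with 32.7, 46.8 and 37.3 FPKM in Kashmiri and 39.0, 45.0 and 31.0 FPKM in Jersey cattle, and PSMD14, the deubiquitinating enzyme it pairs with, ranged from 18.9 to 28.0 FPKM. The scaffold subunits PSMD1 and PSMD2 and the lid subunits PSMD3 and PSMD6 each stayed within 1.51-fold over the 6 groups.

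PSMG3 and PSMG4, which act as a pair in assembling the alpha ring, gave the lowest log2 ratio in 5 of the 6 comparisons between days. PSMG3 had 101, 33.0 and 28.1 FPKM in Kashmiri and 98.0, 25.5 and 14.2 FPKM in Jersey cattle on D15, D90 and D250. PSMG4 had 798, 514 and 146 FPKM in Kashmiri and 482, 103 and 90.4 FPKM in Jersey cattle. As deposited, both were lower on each later day in both breeds. The other pair did not follow them, since PSMG1 had 38.5, 26.1 and 39.0 FPKM in Kashmiri and 20.5, 20.1 and 20.2 FPKM in Jersey cattle, and PSMG2 had 12.4, 28.6 and 17.7 FPKM and 17.04, 19.5 and 17.8 FPKM. Of the cap chaperones, PSMD9 had 41.1, 15.3 and 21.8 FPKM and 34.7, 18.4 and 14.6 FPKM, PSMD10 ranged from 3.06 to 8.52 FPKM and was highest at D15 in both breeds, and PSMD5 ranged from 10.1 to 16.8 FPKM.

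PSMA3 depended on the entry read. The entry with the higher mean had 17.4, 12.4 and 11.8 FPKM in Kashmiri and 32.3, 64.0 and 164 FPKM in Jersey cattle on D15, D90 and D250. The other had 42.5, 50.1 and 61.5 FPKM and 33.5, 50.0 and 38.7 FPKM. The log2 ratio of Jersey over Kashmiri at D250 was 3.68 for the first and -0.65 for the second, so no direction is given for PSMA3. Of the other alpha subunits, PSMA6 had 60.2, 86.0 and 87.0 FPKM in Kashmiri and 94.3, 163 and 146 FPKM in Jersey cattle, PSMA4 ranged from 30.5 to 51.4 FPKM, PSMA5 from 42.7 to 65.0 FPKM and PSMA7 from 140 to 256 FPKM. The structural beta subunits PSMB1 (141 to 272 FPKM) and PSMB4 (137 to 255 FPKM) were highest at D15 in both breeds, while PSMB2 was highest at D90, with 77.7, 110 and 86.8 FPKM in Kashmiri and 88.6, 93.9 and 64.6 FPKM in Jersey cattle. The PSMC3IP entry had 65.1, 58.1 and 35.5 FPKM and 59.2, 58.6 and 96.9 FPKM.

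By day, 24 of 43 genes were highest at D15 in Kashmiri (background 39.3%), 9 at D90 (32.4%) and 10 at D250 (28.3%). For Jersey cattle, 24 were highest at D15 (background 41.4%), 11 at D90 (16.7%) and 8 at D250 (41.9%). Rescaling to the sum left 6, 1 and 36 genes highest on the 3 days in Kashmiri (all genes 15.3%, 15.7% and 69.1%) and 19, 20 and 4 in Jersey cattle (38.0%, 31.7% and 30.3%). Upper-quartile rescaling gave 20, 10 and 13 genes in Kashmiri (all genes 31.7%, 32.1% and 36.1%) and 21, 16 and 6 in Jersey cattle (40.1%, 25.6% and 34.3%).

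The breeds share no samples, so their changes can be set side by side. Across the 43 genes the log2 ratios of D90 over D15 in Kashmiri and Jersey cattle had a Pearson r of 0.73 and a Spearman rho of 0.84 (0.55 and 0.59 over 10436 genes). For D250 over D15 the values were 0.74 and 0.76 (0.49 and 0.58 over 10670 genes). For D250 over D90 they were 0.02 and 0.06 (0.22 and 0.26 over 10362 genes). These are descriptions across genes measured in the same 6 groups, and genes are not independent replicates. PSMB5, PSMC3, PSMD13 and PSMG3 were past the limit downwards in both breeds at D90 against D15, and PSMB10, PSMC3, PSMD13, PSMG3 and PSMG4 at D250 against D15. The share of all genes down in both breeds was not computed. These overlaps therefore cannot be called particular to the proteasome genes.

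**Figure D4:**
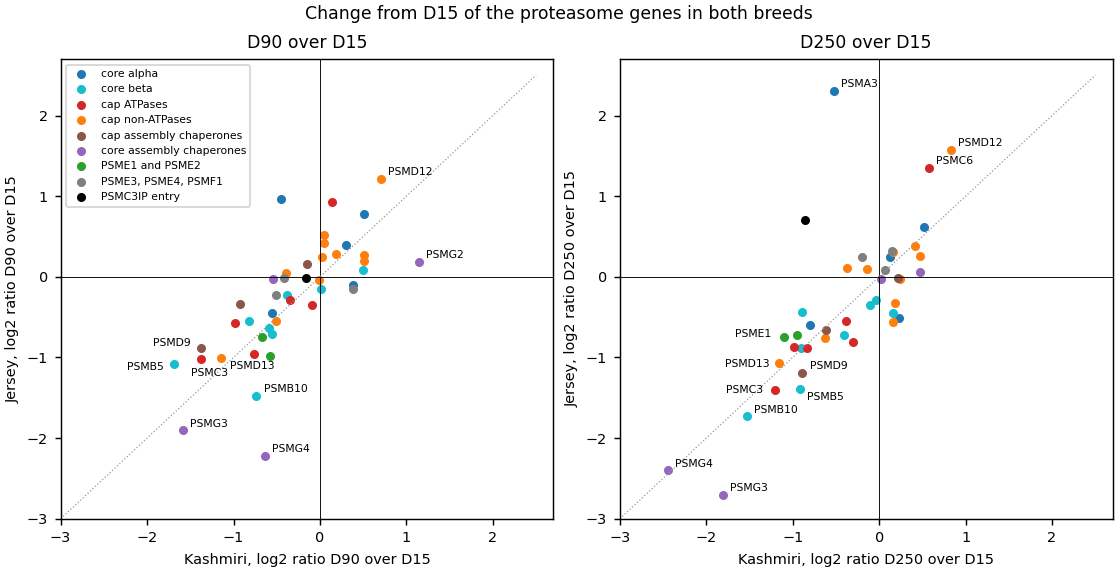
Log2 ratio of each proteasome gene against D15 in Kashmiri (x axis) and Jersey cattle (y axis), at D90 (left) and D250 (right), with genes past the limit of 1 in either breed named, other than PSMC3IP, which was under it. Most points lie near the dotted line of equal ratios, with Pearson r of 0.73 and 0.74, and PSMA3, whose values depend on the entry, lies far off it at D250.

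Genes of higher level at D15 had lower ratios later. The level was taken from the other breed's D15 group, so that it shares no value with the ratio. Its Spearman rho with the D90 and D250 ratios was -0.49 and -0.70 for Kashmiri and -0.77 and -0.71 for Jersey cattle. All genes gave -0.09, -0.29, -0.35 and -0.31 in the same order. The level and the ratio are still not independent, because the D15 groups of the breeds ranked the genes almost alike (Spearman rho of 0.968). A gene raised at D15 in both breeds has a high level and a low later ratio by construction. The values therefore cannot separate an effect of level from a D15 difference common to both breeds. The order of levels was largely kept, with a Spearman rho between groups of 0.730 (Kashmiri D15 and Jersey D250) to 0.968 (Kashmiri D15 and Jersey D15).

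Between breeds the PSM genes differed little at D15. Jersey over Kashmiri had a median of -0.06 (all genes -0.13), with 0 genes up (background 15.9%) and 0 down (13%). At D90 the median was 0.00 (all genes -0.03), with PSMA3 up (1 gene, background 17%) and PSMG4 down (1 gene, background 15.9%). At D250 it was -0.17 (all genes -0.10), with PSMA3 and PSMC3IP up (2 genes, background 22.8%) and PSMB5 down (1 gene, background 11.7%), at 39.7 FPKM in Jersey against 85.1 FPKM in Kashmiri cattle. PSMG4 at D90 and PSMB5 at D250 were past the limit under both rescalings. By its other entry PSMA3 was past the limit on neither day, at 50.0 FPKM in Jersey and 50.1 FPKM in Kashmiri at D90 and with a log2 ratio of -0.65 at D250.

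As deposited, 11 of the 43 genes were higher in Jersey cattle on all 3 days, among them PSMA6, PSMA7, PSMD8 and PSME2. Some of these differences were minimal, as for PSME2 at D90 (115.7 against 115.2 FPKM) and PSMA7 at D15 (log2 ratio of 0.07). The genes lower on all 3 days numbered 13, among them PSMC3, PSMD13, PSMF1, PSMG1 and PSMG4. The shares of all genes were not computed for these 2 counts, and the first includes PSMA3 by the entry used. Rescaling changed the sign of 21, 22 and 16 of the 43 ratios on D15, D90 and D250. Relative to all genes, the alpha ring was above 0 on all 3 days (0.47, 0.47 and 0.58) and the ATPases were below it (-0.16, -0.09 and -0.29), under each scaling. With the other PSMA3 entry the alpha ring values were 0.43, 0.20 and 0.37. Without that reference, the alpha ring median at D250 was 0.47 as deposited and turned to -0.27 and -0.01 on rescaling. The neutrophil and macrophage marker sums were higher in Jersey cattle on all 3 days as well, and the epithelial and T and NK cell sums were lower. At D250 most of the Jersey macrophage sum came from CD68 (996 FPKM) and CD14 (636 FPKM). Of the 9 macrophage markers compared on that day, 5 were higher and 4 lower in Jersey cattle. The median over the macrophage list was lower there, at 16.97 FPKM against 20.7 FPKM in Kashmiri cattle. The part of these cells in the differences was not tested.

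PSMB8 and PSMB9 were both past the limit downwards in Kashmiri cattle at D250 against D15 (-1.80 and -1.45) and against D90 (-1.16 and -1.41). PSMB8 was also past it downwards in Jersey D90 over D15 (-1.22), and PSMB9 upwards in Jersey over Kashmiri at D250 (1.03). Rescaled to the sum, the Kashmiri ratios against D15 were -0.79 and -0.45, and those against D90 were -0.47 and -0.72, all short of the limit. By the upper quartile they were -1.52 and -1.18 against D15 and -1.06 and -1.31 against D90. The Jersey ratio of PSMB8 was -0.96 with the sum and -1.07 by the upper quartile. The breed ratio of PSMB9 was 0.28 with the sum and 0.54 by the upper quartile. For the lists below, the shares of all genes past the limit at D250 over D15 were 11.2% up and 14.5% down in Kashmiri and 24.5% up and 17.9% down in Jersey cattle. The list of other proteasome factors held 13 names, some of them alternative names of the same gene, and 8 were found. These 8 had medians of 0.04 in Kashmiri and 0.39 in Jersey cattle at D250 over D15, with 0 and 2 past the limit upwards and 0 downwards. Of these, POMP, the maturation factor of the core, had 40.2, 76.5 and 68.7 FPKM in Kashmiri and 49.8, 90.05 and 101 FPKM in Jersey cattle, and AKIRIN2, which carries proteasomes into the nucleus, had 16.1, 39.5 and 25.02 FPKM and 67.9, 102 and 257 FPKM. Both were lowest at D15 in each breed.

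The 8 genes of proteasome gene control had medians of 0.51 and 0.89 at D250 over D15, with 2 and 4 past the limit upwards and 0 downwards. NFE2L1, the factor that induces subunit genes when proteasomes are short, stayed between 13.2 and 18.1 FPKM. NFE2L2, the antioxidant factor, had 9.30, 12.3 and 27.2 FPKM in Kashmiri and 18.4, 125 and 187 FPKM in Jersey cattle. Of the 16 ubiquitin and shuttle genes found of 19, 3 were up and 2 down in Kashmiri (median 0.38) and 8 up and 1 down in Jersey cattle (median 0.93) at D250 over D15, with UBE2D1, a ubiquitin-conjugating enzyme, at 1.31, 5.25 and 3.18 FPKM and 3.67, 32.9 and 35.1 FPKM.

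Genes of peptide loading onto MHC class I, which takes up proteasome products, had medians at D250 over D15 of -0.34 (Kashmiri, 0 up and 2 down of 8) and 0.47 (Jersey, 3 up and 0 down of 8). TAP1, a peptide transporter, had 89.6, 119 and 39.7 FPKM in Kashmiri and 134, 143 and 165 FPKM in Jersey cattle. The 5 interferon signalling genes found of 6 had medians of 0.42 and 1.57, with 1 and 4 up and 0 down. IRF1, which acts on inducible subunit genes, had 56.9, 77.2 and 39.4 FPKM in Kashmiri and 159, 387 and 474 FPKM in Jersey cattle.

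Over all these lists of proteasome partners, the genes with the highest and the lowest log2 ratio of each comparison were as follows. In Kashmiri cattle UBE2D1 (1.43) and UBQLN4 (-0.81) bounded D90 over D15, IFNGR2 (1.10) and TAP1 (-1.56) bounded D250 over D90, and NFE2L2 (1.45) and PSMB8 (-1.80) bounded D250 over D15. In Jersey cattle the bounds were UBE2D1 (2.86) and PSMB8 (-1.22), STAT2 (1.69) and CALR (-0.96), and NFE2L2 (3.28) and ZFAND2A (-1.13) for the same pairs of days. Jersey over Kashmiri was bounded by IFNGR1 (2.83) and UCHL5 (-1.12) at D15, by NFE2L2 (3.25) and UBQLN2 (-0.98) at D90, and by IFNGR1 (3.87) and UBQLN4 (-0.97) at D250. IFNGR1 and IFNGR2 encode the interferon gamma receptor, UBQLN2 and UBQLN4 shuttle ubiquitinated proteins to the proteasome, and UCHL5 is a deubiquitinating enzyme of the cap. IFNGR2 stood in an entry joined with SNORA20.

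The 5 genes most like the mean log2 level of the 12 core subunits over the 6 groups, of 2919 at 10 FPKM or more in every group, were TBC1D22A (Pearson r of 0.987), OAZ1, MCRS1, RNF181 and SZRD1 (0.975). OAZ1, whose protein antizyme directs ornithine decarboxylase to the proteasome, had 1669, 815 and 691 FPKM in Kashmiri and 2005, 1322 and 1266 FPKM in Jersey cattle. With 6 points and this many candidates, the values are a description.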

How the data were processed

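RNA of milk epithelial cells was sequenced from stranded mRNA libraries. The authors trimmed reads, aligned them with Bowtie and TopHat to UMD3.1, and obtained FPKM with Cufflinks and Cuffdiff, pooling the samples of a group. The deposited table holds these FPKM values, 1 per entry and group. Columns named Local were taken as Kashmiri cattle. Log2 ratios used a pseudocount of 1 FPKM over genes at 1 FPKM or more in either group, in 9 comparisons, with Python 3.11.15, NumPy 2.4.6 and pandas 2.3.3, and the scripts were tested on simulated data. The gene classes, marker lists and limits were chosen with earlier results of these data known. Every member is named, with values in all groups for the catalytic and PSME1 to PSME3 genes, the highest and lowest of the cap classes, and the 3 highest and 3 lowest ratios per comparison, and of the non-member lists the highest and lowest ratio per comparison. OAZ1, TAP1, IRF1, POMP, NFE2L1, PSMD13 and PSMD9 were described further after their values were seen. Alternatives were another pseudocount, filter and limit, 2 rescalings, centring and other choices of entries. No sequences were used.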

Additional observations from a re-analysis of the deposited data

How the results depend on the processing

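The count of genes past the limit depended on scaling. With values rescaled to the sum without the 6 milk protein genes, the genes up numbered 17 in Kashmiri D250 over D15, 9 in Kashmiri D250 over D90, 4 in Jersey D90 over D15, 0 in Jersey D250 over D90, and 2, 3 and 1 in Jersey over Kashmiri at D15, D90 and D250, and the genes down numbered 1 in Kashmiri D250 over D15, 3 in Jersey D90 over D15, 1 in Jersey D250 over D90 and 20 in Jersey over Kashmiri at D250. Upper-quartile rescaling gave 1 up and 3 down in Kashmiri D250 over D15, 3 up and 3 down in Jersey D90 over D15, 1 down in Jersey D250 over D90, and 1 up and 12 down in Jersey over Kashmiri at D250. Under rescaling to the sum 39.7% of all genes were up in Kashmiri D250 over D15 and 27.2% in Kashmiri D250 over D90, and 37.2% were down in Jersey over Kashmiri at D250, where the upper quartile gave 26.7%. For the other counts given here, the shares of all genes were 10.2% to 22.8% up and 2.63% to 12.5% down with the sum, and 15.5% to 16.8% up and 6.52% to 13.96% down with the upper quartile. Centring on all genes gave 2 up in Jersey D90 over D15 and 0 down in Jersey over Kashmiri at D250. At a limit of 2, Kashmiri D90 over D15 had 0 up and 0 down, Kashmiri D250 over D90 had 0 down, Kashmiri D250 over D15 had 1 down, Jersey D90 over D15 had 0 up and 1 down, Jersey D250 over D90 had 0 up, Jersey D250 over D15 had 1 up and 2 down, and Jersey over Kashmiri at D250 had 1 up and 0 down. The share of all genes was not computed for centring or for a limit of 2, so both sets of counts lack a background. The constitutive core and cap alone gave 0 up and 3 down in Kashmiri D90 over D15, 0 down in Kashmiri D250 over D90, 2 down in Kashmiri D250 over D15, 3 down in Jersey D90 over D15 and in Jersey D250 over D15, 0 down in Jersey over Kashmiri at D90 and 1 up at D250. Summing all entries of a name left 0 up in Jersey D250 over D90 and in Jersey over Kashmiri at D90, and leaving out joined names left 1 up in Jersey over Kashmiri at D250. Alternatives chosen after seeing the data were the other PSMA3 entry, with 0 up in Jersey D250 over D90 and in Jersey over Kashmiri at D90 and 1 up at D250, and leaving out PSMA3, PSMG4 and the joined entries, with 0 down in Kashmiri D250 over D90, 0 up in Jersey D250 over D90, 0 up and 0 down in Jersey over Kashmiri at D90 and 0 up at D250. The core and cap alone, and the set without PSMA3, PSMG4 and the joined entries, hold fewer genes than the main counts. For both, the shares of all genes are those given above for values as deposited. The shares were not computed for summed entries, for joined names left out or for the other PSMA3 entry, so those counts lack a background. In the other 166 results of this kind the count stayed within 1.5 times.

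The median relative to all genes kept its sign in Kashmiri D90 over D15 (-0.40 to -0.09, the latter with core and cap alone) and in the 3 Jersey comparisons between days. In Kashmiri D250 over D15 it was -0.26 and turned to 0.10 with a minimum of 10 FPKM. In Kashmiri D250 over D90 and in the 3 comparisons between breeds, where it was -0.08, 0.07, 0.04 and -0.07, it changed sign under at least 1 alternative, over ranges of -0.09 to 0.08, -0.05 to 0.11, -0.09 to 0.08 and -0.48 to 0.06. The alpha ring median relative to all genes in Jersey D250 over D15 turned to -0.21 without PSMA3, also chosen after seeing the data. The cause of these moves was not tested. No paired analysis was possible because the columns hold 1 pooled value per group, and for the same reason no replicate could be left out. Pooled values in a table without read numbers leave the precision of each level unknown, most of all for genes of a few FPKM such as PSMD10 and PSME4.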
